A study of Mus musculus with 33 samples.

Results

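The chaperones, folding enzymes and one transcription factor that the unfolded protein response controls in the endoplasmic reticulum (ER) were followed across all 7 groups of a study of sleep loss in the mouse frontal cortex. The 10 members, Hspa5, Hsp90b1, Pdia4, Pdia6, Calr, Dnajb11, Manf, Sdf2l1, Creld2 and Xbp1, were taken by gene symbol from a table of 21565 genes, and all 10 were found. All but Xbp1 are proteins of the ER lumen. Xbp1 is no chaperone but a transcription factor of the response, and is described here under that role.

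Frontal cortex was collected from adult male mice of C57BL/6J background at one time of day, giving 33 libraries. Wild-type mice (WT) slept freely (control sleep, CS, n = 6), were kept awake for 6 hr (sleep deprivation, SD, n = 7), or were kept awake for a shorter time and then allowed 2 hr of recovery sleep (RS, n = 7). Mice with loxP sites on both sides of exon 11 of Mef2c (Mef2c f/f, n = 4 in CS and 3 in SD) and mice carrying the same floxed alleles with Camk2a-Cre (Mef2c-cKO, n = 3 in CS and 3 in SD) had no RS group. A slow treadmill under the cage kept the SD and RS mice awake. The Camk2a promoter drives Cre in forebrain excitatory neurons only, so the loss in the whole tissue is partial, and some of the cKO mice also carried a recombined allele outside the brain, in tail DNA, according to the study's methods. The labels give each library a number and no litter, day or batch, and p-values measure only the spread between these libraries.

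Proteins that enter the secretory pathway fold in the ER. When unfolded proteins build up there, BiP (Hspa5) is drawn away from the sensors IRE1, PERK and ATF6, and the transcription factors ATF6, XBP1 and ATF4 then raise genes for chaperones, disulfide isomerases and degradation. Prolonged wakefulness is a known setting of this response in the brain, where a rise of BiP in cortex is the classical readout.

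Many of these genes share a promoter element, and it is shown here because it is a feature that the choice of members by symbol did not read. The ER stress response element (ERSE) is made of CCAAT and CCACG with 9 free bases between them, where NF-Y binds the first part and ATF6 or XBP1 the last. RefSeq promoters (GRCm38.p6, 250 bases before to 50 after the start) were found for 9 of 10 members, all but Manf. On either strand, 5 of 9 held an exact ERSE, against 39 of 32851 promoters (0.119%), and with at most 1 mismatch 6 of 9 held it, against 1.5%. The element was first described in Hspa5, Hsp90b1 and Calr, so this count is a description of the members and no independent evidence. The stretch of the window that lies before the annotated gene is given for Hspa5 and Hsp90b1 in the direction of the gene, followed by single sites in the direction of the motif. Capitals mark the matched elements in the long sequences and the matching fixed letters in the sites.
Hspa5, before the gene, chr2:34771840-34771969, plus strand: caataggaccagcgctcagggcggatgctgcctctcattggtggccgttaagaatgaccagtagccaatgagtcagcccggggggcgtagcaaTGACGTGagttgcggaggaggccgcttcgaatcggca
Hspa5, ERSE, chr2:34772025-34772043, plus strand: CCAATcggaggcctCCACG
Hsp90b1, before the gene, chr10:86705510-86705694, minus strand: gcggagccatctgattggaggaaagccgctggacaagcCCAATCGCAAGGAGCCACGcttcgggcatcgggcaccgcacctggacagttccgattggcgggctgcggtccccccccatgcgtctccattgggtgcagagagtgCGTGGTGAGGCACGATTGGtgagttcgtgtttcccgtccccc
Pdia6, chr12:17266491-17266509, plus strand: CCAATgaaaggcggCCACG
Calr, chr8:84847075-84847093, plus strand: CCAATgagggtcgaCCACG
Creld2, chr15:88819520-88819538, minus strand: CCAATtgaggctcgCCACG
Dnajb11, chr16:22857852-22857862, plus strand: ATTGGcCCACG
Pdia4, chr6:47813602-47813620, plus strand: CCAATcacgggctgCCACt

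The ERSE of Hspa5 began at position -65 from the start, and the same window held TGACGTG, the core bound by XBP1 and ATF6, at position -157. TGACGTG was found in 2.01% of all promoters and in no other member. Hsp90b1 carried 2 ERSEs, at positions -212 and -107, which face opposite directions. Pdia6, Calr and Creld2 carried 1 each, beginning at -98, -162 and -126. Dnajb11 instead held the related ERSE-II, which is ATTGG and CCACG with 1 free base between them, just inside the transcript at position 8, an element found in 12 of 32851 promoters (0.0365%). Pdia4 had a site with 1 mismatch at -108, printed above in lower case at that letter. The windows of Sdf2l1 and Xbp1 held no ERSE, ERSE-II or TGACGTG. The simple half-motif CCAAT, which is contained in ERSE, was common in all promoters (37.4%) and was present in 8 of 9 members, and CCACG was present in 8 of 9, against 32.8%.

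Values are the deposited CPM, the reads of a gene scaled to the total reads of the library, divided by a size factor for that library (median of ratios over 11570 genes) and called rescaled CPM. Libraries held 18935045 to 249046089 reads, and the member with the fewest reads, Sdf2l1, had 73 to 1272 per library, few enough that counting error adds to the spread between its libraries. A gene was called when limma's test gave a Benjamini-Hochberg adjusted p, over all genes tested, of at most 0.05 and the log2 fold change was at least 0.3 in size. Fold changes are on the log2(rescaled CPM + 0.5) scale. All 10 members passed the filter on low values (CPM of at least 1 in all libraries of one or more compared groups) in every comparison. Mef2c itself was at 1431 ± 323 rescaled CPM (SD, n = 6) in WT CS, 1147 ± 67.3 (n = 4) in Mef2c f/f CS and 1431 ± 415 (n = 3) in Mef2c-cKO CS, but the deleted stretch is 1 exon, so a count over the whole gene does not check the genotype. Mef2c was called lower than in CS in WT SD (log2 fold change -0.80 ± 0.13, SE) and WT RS (-0.63 ± 0.16). It was not called from CS to SD in f/f (0.14 ± 0.10) or cKO (-0.09 ± 0.24). The SD response of Mef2c differed between f/f and WT by 0.93 ± 0.20 (limma, adjusted p = 0.018). Excitatory neuron markers such as Slc17a7 and Camk2a were present in every library, with sums over 5 genes of 1189 to 1944 rescaled CPM. Mef2c-cKO CS replicate 8 stood apart from the other libraries of its group. Its astrocyte markers summed to 2340 (715 and 756 in the other Mef2c-cKO CS libraries) and its microglia markers to 419 (159 and 189). Choroid plexus markers in this group summed to 5.41, 7.79 and 320 over the libraries in order of size. Several results that use replicate 8 are given with and without it, and the rest only with it. In tissue RNA, fewer cells of a type and less RNA per cell cannot be told apart.

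The members differed widely in level. Per kb of exon (rescaled CPM divided by the summed exon length of the gene) in WT CS, Hsp90b1 averaged 93.6 and Calr 83.2, with libraries that overlapped. Hspa5 followed at 33.1, clear of both neighbours. Pdia4 (16.9), Pdia6 (16.7), Xbp1 (13.8) and Dnajb11 (13.2) formed a run in which each overlapped the next, then came Manf (6.03), Creld2 (4.20) and Sdf2l1 (2.49), of which Creld2 and Sdf2l1 overlapped. In the other 6 groups Calr ranked above Hsp90b1, with libraries that overlapped only in WT SD. Across all 33 libraries the ratio of highest to lowest was widest for Sdf2l1, from 1.89 to 15.7 per kb, and narrowest for Dnajb11, from 11.0 to 17.3.

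**Figure D1:**
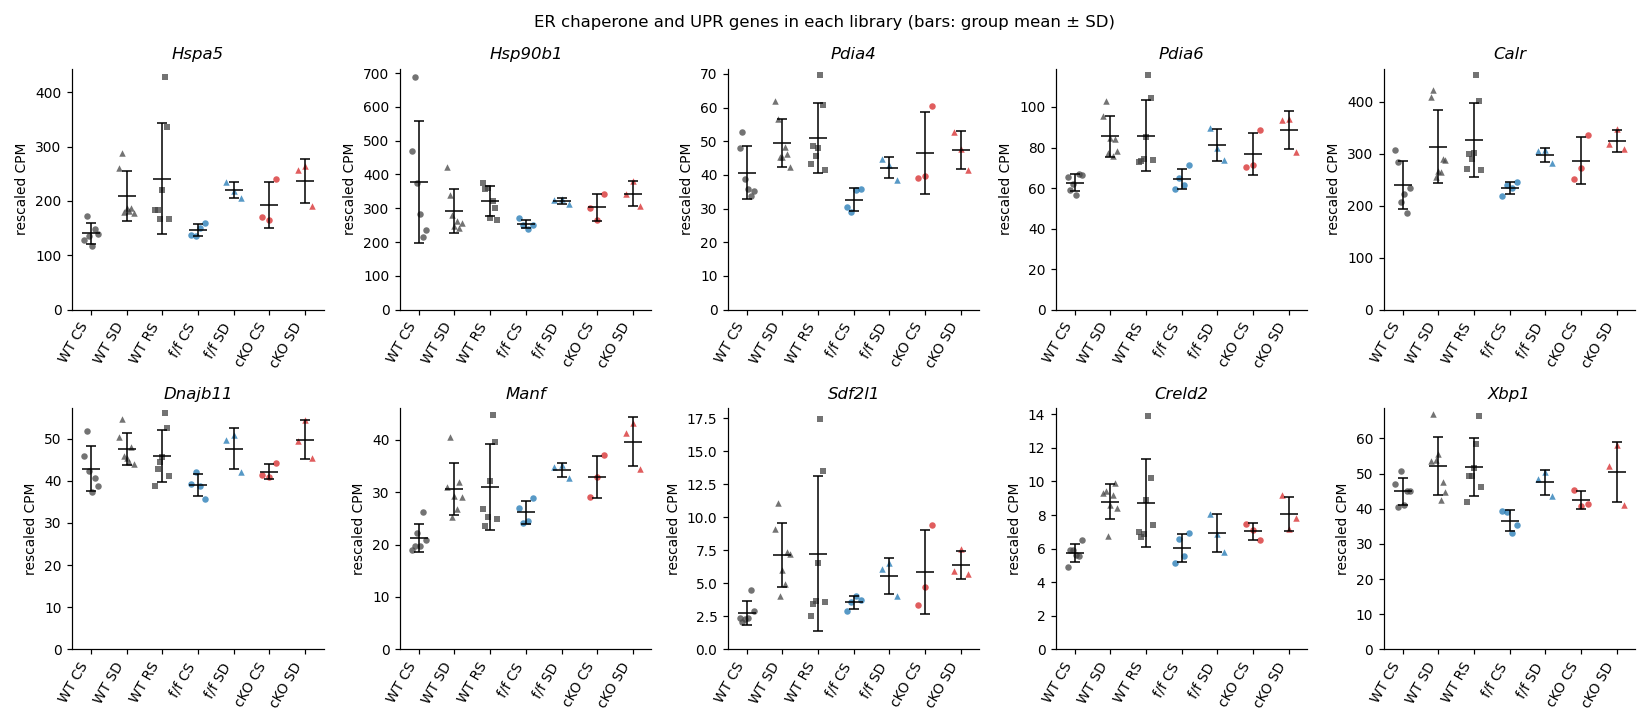
Rescaled CPM (vertical axes, from 0) of the 10 members in each of the 33 libraries of the 7 groups; each point is 1 library and the bars are the group mean ± SD. WT CS lies low for Hspa5, Pdia6, Manf, Sdf2l1 and Creld2, while Hsp90b1 in WT CS spreads from 215 to 689.

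The first comparison asked which of these genes move when WT mice lose 6 hr of sleep. Of the 10 members 6 rose and none fell: Sdf2l1, Creld2, Hspa5, Manf, Pdia6 and Calr. The rises went from 1.30-fold for Calr to 2.30-fold for Sdf2l1. Sleep loss moved much of the transcriptome in these mice, with 45.1% of 12913 genes called and 24.6% called higher, and 6 of 10 is read against that 24.6%. The median log2 fold change of the members was 0.41 and that of all genes tested 0.04. Hsp90b1, Pdia4, Dnajb11 and Xbp1 were not called.

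Hspa5 (chr2:34771970-34777547, plus strand) encodes BiP, the Hsp70 of the ER lumen, which binds unfolded chains and holds the stress sensors inactive. It was at 117 (lowest), 137 (median) and 172 (highest) rescaled CPM in WT CS and at 178, 187 and 288 in WT SD. Every SD library lay above every CS library, and SD replicates 1 and 2, at 261 and 288, stood well above the other 5, which lay between 178 and 188. The log2 fold change was 0.56 ± 0.13 (SE, adjusted p = 0.0049).

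Hsp90b1 (chr10:86690209-86705509, minus strand) encodes GRP94, the Hsp90 of the ER, which folds a narrow set of clients such as integrins and Toll-like receptors. It was at 215, 328 and 689 in WT CS and at 242, 262 and 422 in WT SD. The groups overlapped. CS replicates 1 and 2, at 471 and 689, were above every SD library, and CS replicate 3, at 373, was above all but SD replicate 1. Its log2 fold change was -0.27 ± 0.24 (adjusted p = 0.34). Without those 3 CS libraries, a choice made after seeing the values, it was 0.24 ± 0.16 (adjusted p = 0.28). With all libraries it was 0.006 with CPM as deposited, 0.014 with quantile normalization and 0.07 with a trend on GC content and length removed. The direction thus depended on those 3 libraries and on the scaling.

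Sdf2l1 (chr16:17130138-17132383, minus strand) and Dnajb11 (chr16:22857845-22879634, plus strand) encode partners of BiP: DNAJB11 (ERdj3) delivers clients to it, and SDF2L1 forms a complex with DNAJB11. Sdf2l1 was at 2.10, 2.39 and 4.50 in WT CS and at 4.07, 7.23 and 11.1 in WT SD. The groups met only where CS replicate 5, at 4.50, reached above SD replicate 3, at 4.07. Its log2 fold change was 1.20 ± 0.21 (adjusted p = 0.0012), higher than that of 98.9% of genes tested. Dnajb11 was at 37.3, 41.6 and 51.9 in CS and at 44.0, 45.8 and 54.7 in SD. CS replicates 1 and 2 lay within the SD range, and the log2 fold change was 0.15 ± 0.09 (adjusted p = 0.15).

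Pdia6 (chr12:17266545-17284770, plus strand) and Pdia4 (chr6:47796141-47813430, minus strand) encode protein disulfide isomerases, which form and rearrange disulfide bonds in client proteins. Pdia6 was at 56.7, 63.7 and 66.9 in CS and at 75.9, 84.1 and 103 in SD, with no overlap, and rose by 0.44 ± 0.08 on the log2 scale (adjusted p = 0.0020). Pdia4 was at 33.6, 37.2 and 52.7 in CS and at 42.3, 46.3 and 62.0 in SD. Here CS replicates 1 and 2, at 48.0 and 52.7, lay among the SD libraries, and the log2 fold change of 0.29 ± 0.12 was short of both thresholds (adjusted p = 0.059). Pdia4 was called when either of those CS libraries was left out.

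Calr (chr8:84841850-84846934, minus strand) encodes calreticulin, which binds the sugars of new glycoproteins and buffers ER calcium. It was at 185, 228 and 306 in CS and at 255, 287 and 423 in SD. CS replicates 1 and 2, at 306 and 284, overlapped with the SD libraries, of which replicates 1 and 2 were highest, at 408 and 423. The log2 fold change was 0.38 ± 0.15 (adjusted p = 0.045). This was the least stable of the 6 calls: edgeR on the recovered reads did not make it, nor did limma without any 1 of CS replicates 3, 4, 5 and 6 or SD replicates 1, 2, 8 and 9.

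Manf (chr9:106838312-106891979, minus strand) encodes a small ER protein that binds BiP, is secreted under stress and acts as a neurotrophic factor, and Creld2 (chr15:88819646-88826683, plus strand) encodes a secreted ER protein induced by stress. Manf was at 19.0, 20.3 and 26.2 in CS and at 25.3, 29.3 and 40.5 in SD. CS replicate 5 alone, at 26.2, reached into the SD range, and Manf rose by 0.51 ± 0.11 (adjusted p = 0.0036). Creld2 was at 4.90, 5.77 and 6.51 in CS and at 6.73, 9.17 and 9.88 in SD, with no overlap, and rose by 0.57 ± 0.10 (adjusted p = 0.0012). The annotated span of Manf contains stretches of Rbm15b on the same strand and Dcaf1 on the other, that of Pdia6 overlaps Atp6v1c2 and that of Dnajb11 overlaps Gm30505 on the other strand, and that of Hsp90b1 overlaps 1810014B01Rik on the other strand and Gm15344 on the same one. How the counting treated such reads is not given in the sources used here, so the values of these 4 genes are uncertain to that extent.

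Xbp1 (chr11:5520659-5525893, plus strand) encodes the transcription factor whose mRNA IRE1 splices into its active form, and a count over the gene does not tell the spliced from the unspliced form. It was at 40.5, 45.1 and 50.6 in CS and at 42.5, 53.6 and 66.8 in SD. SD replicates 6, 8 and 9 lay within the CS range, and the log2 fold change was 0.20 ± 0.10 (adjusted p = 0.11).

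Of 10 members, 3 (Hspa5, Pdia6 and Creld2) had SD libraries that were all above the CS libraries, where the groups did not overlap for 15.1% of all genes tested. SD replicate 2 ranked in the top 2 of its group for 10 of 10 members and SD replicate 1 for 7. Without both, a choice made after seeing the values, 5 members were still called higher (all of the 6 but Calr), as were 2467 of 12970 genes. The members' log2 fold changes were then 0.39 ± 0.09 for Hspa5, 0.35 ± 0.07 for Pdia6, 0.42 ± 0.10 for Manf, 0.99 ± 0.19 for Sdf2l1 and 0.53 ± 0.11 for Creld2.

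Several other measures moved with the WT comparison. Blood markers were all called higher in SD (5 of 5), with sums of 28.2 to 118 rescaled CPM in CS and 97.9 to 285 in SD. Of the meningeal fibroblast markers tested, 4 of 6 were called higher, with sums over the 7 listed of 9.44 to 42.5 in CS and 49.9 to 79.9 in SD, and Col1a1, Col1a2, Col3a1 and Slc22a6 were those called, while Igf2 was listed at 0 in every WT CS library. Of 5 markers each, 3 of mural cells were called higher and 1 lower, 2 of inhibitory neurons higher and 2 of astrocytes higher. Microglia and endothelial cells each had 1 of 5 called higher and 1 lower. Excitatory neurons and oligodendrocytes each had 1 of 5 called lower and none higher. The sums of all these cell types overlapped between the groups. Of 3 choroid plexus markers tested, 1 was called lower and none higher. Choroid plexus sums over the 5 listed had a median of 24.96 in CS and 14.39 in SD, and overlapped only narrowly. The astrocyte sum had a median of 725 in CS and 627 in SD, so it did not follow the 2 called markers. The part of these cell types in the members' result was not tested. The log2 fold change also followed the GC content of transcripts across 12442 genes (Spearman rho 0.721, a description, since genes share libraries). Among the members, GC content ran from 42.0% in Hsp90b1 to 56.7% in Sdf2l1. With a trend on GC content and length removed from each library, Hspa5 was at 0.76 ± 0.12 and Pdia6 at 0.48 ± 0.07, Sdf2l1 at 0.68 ± 0.14, and Pdia4 at 0.40 ± 0.09 was then called, while Creld2 at 0.21 ± 0.10 was not (adjusted p = 0.12) and Hsp90b1 turned to 0.07 ± 0.17. With CPM as deposited the median of all genes itself moved to 0.30, and 9 of 10 members were called, with a median of 0.68. Over all genes 6907 of 12913 were then called, 6106 of them higher.

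**Figure D2:**
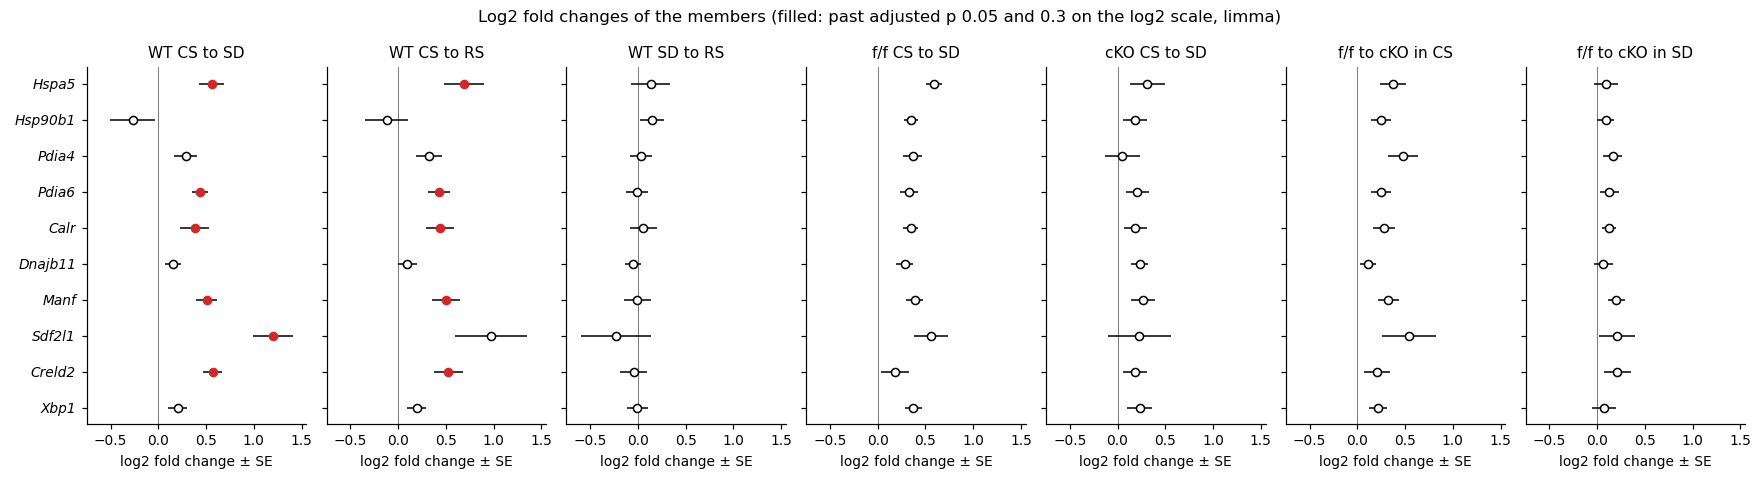
Log2 fold change (horizontal axes) ± SE of each member in 7 comparisons; filled points passed adjusted p of 0.05 and 0.3 on the log2 scale in limma's test. In all, 6 points are filled for WT CS to SD and 5 for WT CS to RS, none in the other panels, and all 10 points lie right of 0 in the Mef2c f/f, Mef2c-cKO and genotype panels.

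The second comparison asked what was seen after 2 hr of recovery sleep. In WT RS, 5 of 10 members were higher than in CS: Hspa5, Creld2, Manf, Calr and Pdia6. Of 12752 genes, 17.5% were called and 9.28% called higher. The CS libraries are the same as in the first comparison, so the 2 sets of values are not independent. The RS libraries were far apart among themselves.

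Hspa5 was at 166, 184 and 428 in WT RS, and its log2 fold change from CS was 0.69 ± 0.21 (adjusted p = 0.041), set beside 0.56 in SD. RS replicates 5 and 6, at 428 and 337, were the highest of all 33 libraries, replicate 4 was at 220, and the other 4 lay between 166 and 184. Of these, replicates 3 and 12 were below the highest CS library. Sdf2l1 showed the same split more widely, at 2.52, 3.69 and 17.4, with replicates 5 and 6 at 17.4 and 13.5, replicate 4 at 6.56 and the others at or below 3.69. Its log2 fold change of 0.97 ± 0.38 was not called (adjusted p = 0.069).

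Pdia6 was at 72.9, 74.6 and 116 in RS and Creld2 at 6.71, 7.43 and 13.9, and for both every RS library lay above every CS library, which held for 3.72% of all genes. Their log2 fold changes were 0.43 ± 0.12 (adjusted p = 0.036) and 0.53 ± 0.15 (adjusted p = 0.039). Manf was at 23.6, 26.8 and 44.6, overlapping with CS replicate 5, with a log2 fold change of 0.50 ± 0.15 (adjusted p = 0.041). Calr was at 269, 299 and 450, overlapping with CS replicates 1 and 2, with 0.44 ± 0.15 (adjusted p = 0.0497). In Manf and Calr too the highest libraries were replicates 5 and 6.

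Besides Sdf2l1, the members not called against CS were Pdia4 at 41.4, 47.9 and 69.6 (log2 fold change 0.32 ± 0.14), Dnajb11 at 38.8, 44.5 and 56.1 (0.10 ± 0.10), Xbp1 at 42.0, 49.3 and 66.5 (0.19 ± 0.10) and Hsp90b1 at 266, 322 and 376 (-0.12 ± 0.23). These 4, like Sdf2l1, overlapped with CS. RS replicate 5 or 6 was the highest library for 9 of 10 members, and both were among the top 2 for 9 of 10. The exception was Hsp90b1, whose highest RS libraries were replicates 1, 3 and 2, at 376, 360 and 356.

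Without RS replicates 5 and 6, also a choice made after seeing the values, no member was called by limma, and neither was any of the 12781 genes tested. At an unadjusted p under 0.05 it gave 5 of 10 members and 3112 of all genes. Hspa5 was then at a log2 fold change of 0.39 ± 0.11 (adjusted p = 0.16), Sdf2l1 at 0.43 ± 0.22 and Pdia6 at 0.27 ± 0.08. The count was also 0 when any 1 of CS replicates 1, 2 and 3 or RS replicates 3, 4, 5, 6 and 12 was left out, and 3 without CS replicate 4. Over all genes, those fits with no member called gave 223, 98 and 0 calls without CS replicates 1, 2 and 3, 3 without RS replicate 4 and 0 without RS replicates 3, 5, 6 and 12, so most calls over all genes were lost along with those of the members. With all libraries, edgeR called 5 members and 1623 of 12752 genes, and DESeq2 6 members and 3420 genes. In RS replicates 5 and 6, blood markers summed to 131 and 110 rescaled CPM, within the 85.3 to 139 of the group, meningeal fibroblast markers to 40.5 and 49.8, within 16.1 to 49.8, and astrocyte markers to 581 and 583, at the low end of 581 to 791. Whether cell makeup has a part in the high values of these 2 libraries was not tested.

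Between SD and RS no member was called, and 0.0232% of 12921 genes were. None of the 10 had an unadjusted p under 0.05 in limma, where 683 of all 12921 genes did, and edgeR and DESeq2 called no member. All members overlapped between the groups (0.163% of all genes did not). Log2 fold changes went from -0.23 ± 0.36 for Sdf2l1 to 0.15 ± 0.12 for Hsp90b1, with Hspa5 at 0.13 ± 0.20 (95% interval -0.30 to 0.57). Without RS replicates 5 and 6, 9 of 10 members were lower in RS than in SD, led by Sdf2l1 at -0.77 ± 0.23 (adjusted p = 0.15). At an unadjusted p under 0.05 limma then gave 3 members and 2320 of all 12950 genes. A difference between SD and RS was thus not detectable with these libraries.

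**Figure D3:**
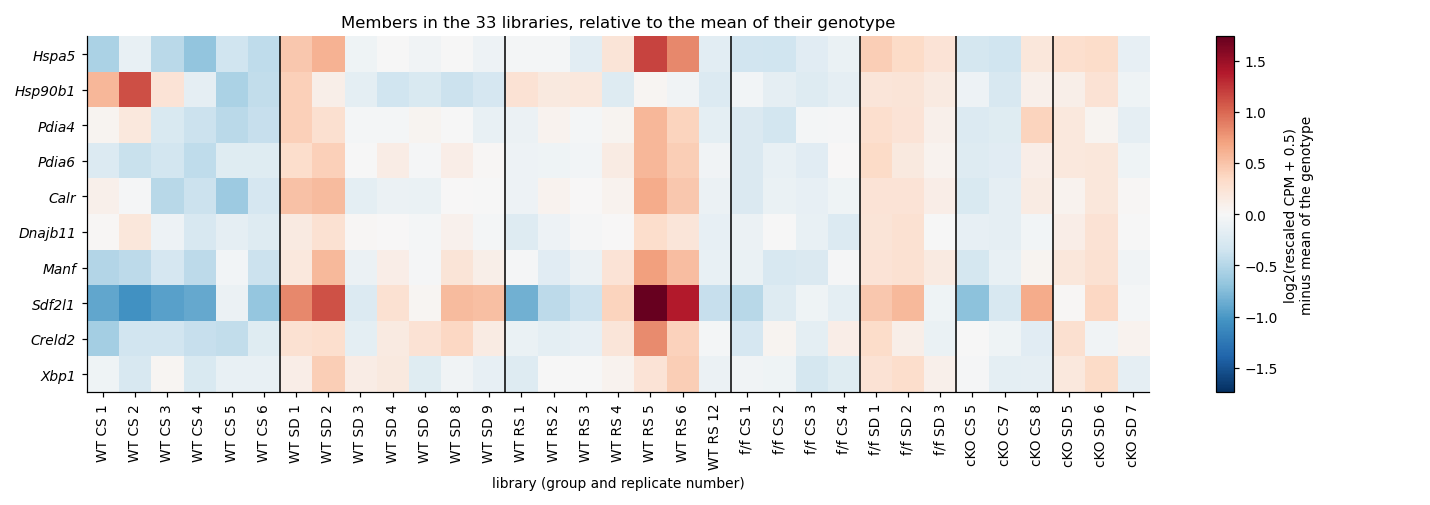
Each column is 1 library, each row a member, and colour gives log2(rescaled CPM + 0.5) minus the mean of that gene over all libraries of the same genotype. WT SD 1 and 2 and WT RS 5 and 6 are high in nearly all rows, and Hsp90b1 departs from the other rows in WT CS 1 to 3.

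In Mef2c f/f mice, which carry the floxed alleles without Cre, all 10 members were higher in SD than in CS, and none was called. Only 0.0403% of 12410 genes were called in this comparison. At an unadjusted p under 0.05 limma gave 9 of 10 members, all higher, and 2111 of all 12410 genes. edgeR called no member and 9 genes, and DESeq2 called 7 members and 467 genes. The members' log2 fold changes were 0.18 to 0.59, with a median of 0.35 where the median of all genes tested was -0.00. The groups did not overlap for 7 of 10 members (Hspa5, Hsp90b1, Pdia4, Pdia6, Calr, Manf and Xbp1), against 17.4% of all genes.

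Hspa5 was at 138, 136, 151 and 160.0 rescaled CPM in the 4 f/f CS libraries and at 234, 219 and 205 in the 3 SD libraries. No library came near the other group, and the log2 fold change was 0.59 ± 0.09 (adjusted p = 0.051). That is higher than in 99.5% of genes tested. Hsp90b1 was at 271, 251, 240.0 and 252 in CS and at 325, 328 and 312 in SD. The groups were apart here, with an SD of 12.8 in CS where WT CS had 180, and the log2 fold change was 0.34 ± 0.07 (adjusted p = 0.0997).

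Calr was at 219, 239, 234 and 246 in CS and at 305, 306 and 282 in SD (log2 fold change 0.34 ± 0.08, adjusted p = 0.10). Manf was at 27.0, 24.1, 24.5 and 28.8 in CS and at 34.7, 35.1 and 32.8 in SD (0.39 ± 0.09, adjusted p = 0.10). Xbp1 was at 39.2, 38.9, 33.01 and 35.3 in CS and at 48.6, 50.4 and 43.5 in SD (0.37 ± 0.09, adjusted p = 0.12). In each of these 3 the lowest SD library was replicate 3, still above all of CS.

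Pdia4, at 30.5, 29.0, 35.4 and 35.8 in CS and 44.8, 42.9 and 38.6 in SD, and Pdia6, at 59.6, 64.9, 61.6 and 71.2 in CS and 89.5, 79.7 and 73.9 in SD, were apart as well, with log2 fold changes of 0.36 ± 0.10 and 0.33 ± 0.09. Sdf2l1 was at 2.90, 3.57, 4.03 and 3.74 in CS and at 6.09, 6.57 and 4.01 in SD, where SD replicate 3 lay just below CS replicate 3 (0.56 ± 0.18, adjusted p = 0.18). Dnajb11 had log2 fold changes of 0.28 ± 0.09 and Creld2 of 0.18 ± 0.14, both with overlap. SD replicate 3 was the lowest of its group for 10 of 10 members. Leaving out CS replicate 1 brought 5 members past the thresholds (Hspa5, Hsp90b1, Calr, Manf and Xbp1) and 590 of all 12433 genes, and leaving out any 1 of the other libraries brought no member and at most 3 genes.

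In Mef2c-cKO mice, again all 10 members were higher in SD than in CS and none was called, where 0.0234% of 12810 genes were. One member, Dnajb11, had an unadjusted p under 0.05 in limma, against 6 members without CS replicate 8 and 4 without SD replicate 7. Over all genes these fits gave 391 of 12810, 592 of 12856 and 428 of 12873. With all libraries edgeR and DESeq2 called none. The log2 fold changes were 0.05 to 0.31, with a median of 0.22 beside -0.01 for all genes tested. The groups did not overlap for Dnajb11 alone, against 9.05% of all genes.

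Hspa5 was at 171, 165 and 240.5 in cKO CS (replicates 5, 7 and 8) and at 257, 264 and 190.2 in cKO SD (replicates 5, 6 and 7). CS replicate 8 and SD replicate 7 crossed the groups, and the log2 fold change was 0.31 ± 0.18. Dnajb11 was at 41.4, 40.8 and 44.2 in CS and at 49.5, 54.5 and 45.3 in SD (0.23 ± 0.09, adjusted p = 0.998). Sdf2l1 was at 3.39, 4.74 and 9.43 in CS and at 5.92, 7.64 and 5.73 in SD, with the highest value of all in CS replicate 8.

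CS replicate 8 was the highest of its group for 8 of 10 members, and SD replicate 7 the lowest of its group for 9. CS replicate 8 is the library with high astrocyte and microglia markers, and its blood markers summed to 10.7, where the other cKO CS libraries had 63.0 and 108. The part of this in the members' values was not tested. Without it, Hspa5 was at 0.48 ± 0.15, Sdf2l1 at 0.61 ± 0.19, Manf at 0.35 ± 0.12, Pdia6 at 0.32 ± 0.11 and Calr at 0.31 ± 0.09, none called (adjusted p = 0.94 for each), with 2 CS libraries remaining.

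The SD response was then compared between genotypes. The difference of the log2 fold changes, cKO minus f/f, was not called for any member, where 0.00778% of 12860 genes were called. No member had an unadjusted p under 0.05 in limma, where 1005 of all genes did. edgeR and DESeq2 called none. It was below 0 for 9 of 10, from -0.33 ± 0.38 for Sdf2l1 to 0.00 ± 0.20 for Creld2. For Hspa5 it was -0.28 ± 0.20 with a 95% interval of -0.71 to 0.16, which includes 0. For Calr the interval was -0.45 to 0.14, and for Manf -0.45 to 0.20. Without cKO CS replicate 8 the difference for Hspa5 was -0.10 ± 0.17 and for Sdf2l1 0.05 ± 0.28. A loss of the chaperone response in Mef2c-cKO mice was therefore not detectable in these libraries.

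The levels of the 2 genotypes were compared within each sleep state. In CS, all 10 members were higher in Mef2c-cKO than in Mef2c f/f, none was called, and 7.67% of 12681 genes were. At an unadjusted p under 0.05 limma gave 6 of 10, but 1 without cKO CS replicate 8 and 1 without f/f CS replicate 2. Over all genes these fits gave 3557 of 12681, 3073 of 12745 and 2806 of 12694. edgeR called no member and 1067 genes, and DESeq2 called 1 member, Pdia4, and 2095 genes. Pdia4 was at 39.1, 39.8 and 60.6 in cKO CS, all above the f/f CS libraries, with a log2 fold change of 0.48 ± 0.16 (adjusted p = 0.095). Calr, Hspa5, Manf and Xbp1 were also apart, so 5 of 10 members did not overlap, against 26.9% of all genes. Manf, at 29.0, 32.8 and 37.0 in cKO CS, differed by 0.33 ± 0.11 (adjusted p = 0.10), and Hspa5 by 0.37 ± 0.14 (adjusted p = 0.12). Without cKO CS replicate 8 these were 0.27 ± 0.12 for Pdia4, 0.24 ± 0.12 for Manf and 0.20 ± 0.10 for Hspa5, and the astrocyte and microglia sums given for that library apply here too.

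In SD, all 10 members were again higher in cKO by log2 fold changes of 0.07 to 0.21. None was called by limma, edgeR or DESeq2, while 15.1% of 12774 genes were called by limma. None had an unadjusted p under 0.05 in limma, where 4357 of all genes did. Calr alone did not overlap between the genotypes, at 305, 306 and 282 in f/f and 318, 348 and 308 in cKO, where 40.3% of all genes did not overlap. Manf was at 41.2, 43.2 and 34.4 in cKO SD, with a log2 fold change of 0.20 ± 0.09 (adjusted p = 0.17), and was called without cKO SD replicate 7, at 0.30 ± 0.07 (adjusted p = 0.043).

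WT and Mef2c f/f mice are both without Cre, and their SD responses were set against each other in 1 fit. No member differed at the threshold, where 15.1% of 13106 genes did. At an unadjusted p under 0.05 limma gave 1 member and 5248 of all 13106 genes, and edgeR and DESeq2 called no member. For Hspa5 the difference, f/f minus WT, was 0.03 ± 0.19 (95% interval -0.38 to 0.43), for Calr it was -0.04 ± 0.22 and for Pdia6 -0.11 ± 0.13. Hsp90b1 was at 0.61 ± 0.35 (adjusted p = 0.18), Sdf2l1 at -0.64 ± 0.33 (adjusted p = 0.14) and Creld2 at -0.39 ± 0.17 (adjusted p = 0.098). These are the member of lowest GC content and the pair of highest. With the trend on GC content and length removed, the 3 differences were 0.19 ± 0.25, -0.11 ± 0.23 and -0.02 ± 0.16, and across 12631 genes the difference had a Spearman rho of -0.756 with GC content. WT and f/f libraries also differ in what the table lists, since the CPM of WT libraries summed to less than the 1000000 of the f/f and cKO libraries, so the genotype cannot be told apart from that difference in tables.

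The members were next described by how they vary together over all 33 libraries, after the mean of each genotype was removed from log2 values. Correlations here are descriptions without a test, since libraries share groups and the members share depth and base composition. Of 11569 other genes with CPM of at least 1 in every library, those closest to Hspa5 were members: Pdia6 (Pearson's r 0.941, Spearman's rho 0.928), Manf (0.917, 0.906), Sdf2l1 (0.874, 0.809), Calr (0.872, 0.830) and Pdia4 (0.867, 0.856) held ranks 1 to 5. Creld2 was at rank 17 (r 0.800), Dnajb11 at 24 (0.783) and Xbp1 at 76 (0.731). Without the 2 libraries farthest from the median of Hspa5, WT RS replicates 5 and 6, Pdia6 (0.923), Manf (0.881), Pdia4 (0.824) and Calr (0.824) still held ranks 1 to 4. The mean of each group was removed instead, so that no difference between sleep states enters. Pdia6 (0.908), Manf (0.856) and Sdf2l1 (0.852) then held ranks 1 to 3, while Pdia4 went to rank 10, Calr to 18, Creld2 to 112 and Xbp1 to 318. Among the 20 WT libraries alone, Pdia6 held rank 1, Manf 4, Sdf2l1 8, Creld2 16, Pdia4 29 and Calr 33. Dnajb11 was there at rank 133 and Xbp1 at 358. Among the 13 f/f and cKO libraries, Pdia6 held rank 1, Calr 3, Manf 5, Pdia4 11 and Sdf2l1 43.

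Hsp90b1 was farthest from this pattern. Its r with Hspa5 was 0.177 over the 33 libraries, rank 4574 of 11569. Among the 13 f/f and cKO libraries alone it was 0.916 (rho 0.874, rank 7), where Creld2 was at 0.445 (rank 1449), and among the 20 WT libraries 0.042 (rho 0.026). In WT, Hsp90b1 was set beside the sum of CPM that is listed for a library. In the 8 libraries with a sum of at most 965953 it was at 282 to 689 (median 375), and in the 12 with 977452 or more at 215 to 338 (median 264). Within CS the 4 libraries below had 282 to 689 and the 2 above 215 and 235, within RS the 3 below had 356 to 376 and the 4 above 266 to 322, and within SD the 1 below had 422 and the 6 above 242 to 338. In rescaled CPM the 2 sides did not overlap in any of the 3 states, with only 1 library below in SD. With CPM as deposited they overlapped in RS, at 308 to 346 below and 271 to 336 above. The line between the sides was not a planned setting, and the share of all genes so ordered was not counted. Hspa5 showed no such order, at 117 to 261 below and 138 to 428 above. Pdia4 was also higher below in CS (35.8 to 52.7 against 33.6 to 35.1) and in SD (62.0 against at most 56.5), but overlapped in RS. In CS, Pdia6 and Sdf2l1 were lower below, without overlap. What the lower sums stand for was not tested.

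**Figure D4:**
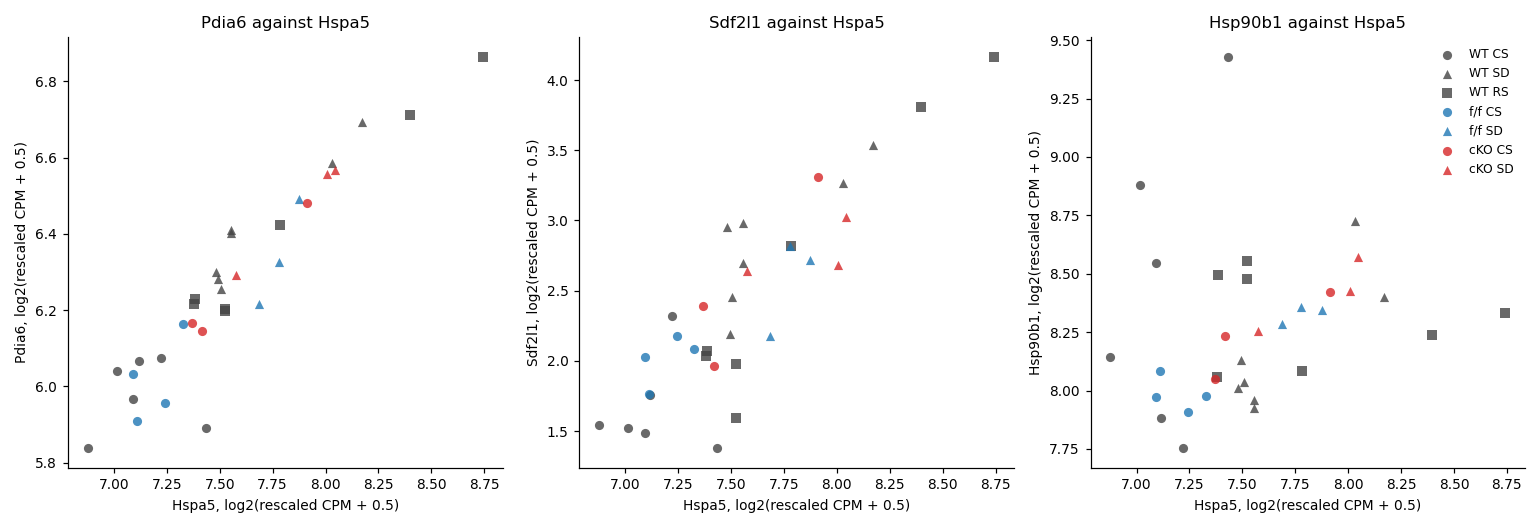
Log2(rescaled CPM + 0.5) of Pdia6, Sdf2l1 and Hsp90b1 (vertical axes) against Hspa5 (horizontal axes), 1 point per library, with colour for genotype and shape for sleep state. Pdia6 and Sdf2l1 follow Hspa5 in all genotypes, while Hsp90b1 follows it in f/f and cKO libraries (r 0.916 with genotype means removed) and not in WT libraries (r 0.042).

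Outside the members, the genes most like Hspa5 were Enc1 (r 0.864), Cct3 (0.832), Cct4 (0.830), Eif4a1 (0.826) and Mkrn1 (0.813). Those most like the mean of the 10 members were Enc1 (0.889), Snx3 (0.863), Eif4a1 (0.859), Ramp2 (0.855) and Cct3 (0.843). Cct3 and Cct4 are subunits of the cytosolic chaperonin TRiC, and Eif4a1 is the helicase of translation initiation.

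The rest of the pathway gave a mixed picture in WT SD, to be read against 24.6% of all genes called higher and 2643 of 12913 called lower. Of the sensors and factors of the unfolded protein response, 3 of 12 tested were called higher and 2 lower. Atf4, the effector of the PERK arm, was at 48.8 ± 17.9 rescaled CPM (SD, n = 6) in WT CS and 87.4 ± 19.5 (n = 7) in SD, and its log2 fold change was 0.92 ± 0.24 (adjusted p = 0.0090). Atf6b rose by 0.97 ± 0.25, Atf6, the sensor and factor of the third arm, fell by 0.38 ± 0.09, and Mbtps2, one of the proteases that release it, fell by 0.40 ± 0.12. Among known ATF4 targets 9 of 16 were called higher and none lower, with a median log2 fold change of 0.35, led by Ddit4 at 1.65 ± 0.25 and Atf5 at 1.19 ± 0.25. Ddit4 is also a target of glucocorticoids. In the SD response of f/f minus WT, 3 of 16 ATF4 targets were called lower (median -0.32), where 758 of 13106 genes were. The ATF4 targets are given here without the GC and length correction.

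Other ER folding factors, 25 tested, had 5 called higher and 4 lower, and a median of 0.00. Hyou1, a nucleotide exchange factor of BiP, rose from 76.5 ± 12.3 to 109.7 ± 5.94 (log2 fold change 0.53 ± 0.10, adjusted p = 0.0018) and P4hb, the founding disulfide isomerase, rose by 0.32 ± 0.07. Dnajb9 (ERdj4), another stress-induced co-chaperone, fell by 0.43 ± 0.17 (adjusted p = 0.041). Pdia3 and Dnajc3, also stress-induced, were at 0.04 ± 0.16 and -0.19 ± 0.14.

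In the same WT comparison, 7 of 17 genes of ER-associated degradation were called higher and 2 lower (median 0.13), among them Syvn1 at 0.53 ± 0.18, Derl1 at 0.43 ± 0.14 and Herpud1 at 0.32 ± 0.12. For the translocon and N-glycosylation it was 7 higher and 2 lower of 22 (median 0.12), and for ER-Golgi transport 6 and 2 of 18 (median 0.10), with the KDEL receptors Kdelr2 and Kdelr1, which return chaperones to the ER, at 0.42 ± 0.11 and 0.37 ± 0.12. For cytosolic heat shock proteins it was 7 and 3 of 20 (median -0.00). The shares called higher of the sensors, the other folding factors, the translocon and the transport list were near that of all genes. The median of the members, 0.41, was above that of each of these lists, beside 0.04 for all genes tested.

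From WT CS to RS, where 9.28% of all genes were called higher, the calls were 2 higher and none lower of 12 sensors and factors, 3 and 3 of 25 other folding factors, 1 and none of 17 degradation genes, 1 and none of 22 of the translocon and N-glycosylation, 2 and 1 of 18 of ER-Golgi transport, 4 and none of 15 ATF4 targets, and 3 and none of 20 cytosolic heat shock proteins. In Mef2c f/f mice no gene of these 7 lists was called between CS and SD, and the list medians lay between -0.02 (ATF4 targets) and 0.13 (cytosolic heat shock proteins), below the members' 0.35. Pdia3, a disulfide isomerase that works with calreticulin, was at 97.8 ± 7.05 in f/f CS (n = 4) and 132 ± 5.51 in SD (n = 3), a log2 fold change of 0.43 ± 0.08 (adjusted p = 0.077), Dnajc3 at 0.41 ± 0.12, Hspa13 at 0.45 ± 0.14 and Dnajb9 at 0.34 ± 0.14, while Hyou1 was at 0.11 ± 0.09 and Atf4 at 0.07 ± 0.09. In cKO mice Atf4 was at 0.44 ± 0.23 and Hyou1 at 0.28 ± 0.07 (unadjusted p = 0.0063, adjusted p = 0.998), and no gene of the lists was called.

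**Figure D5:**
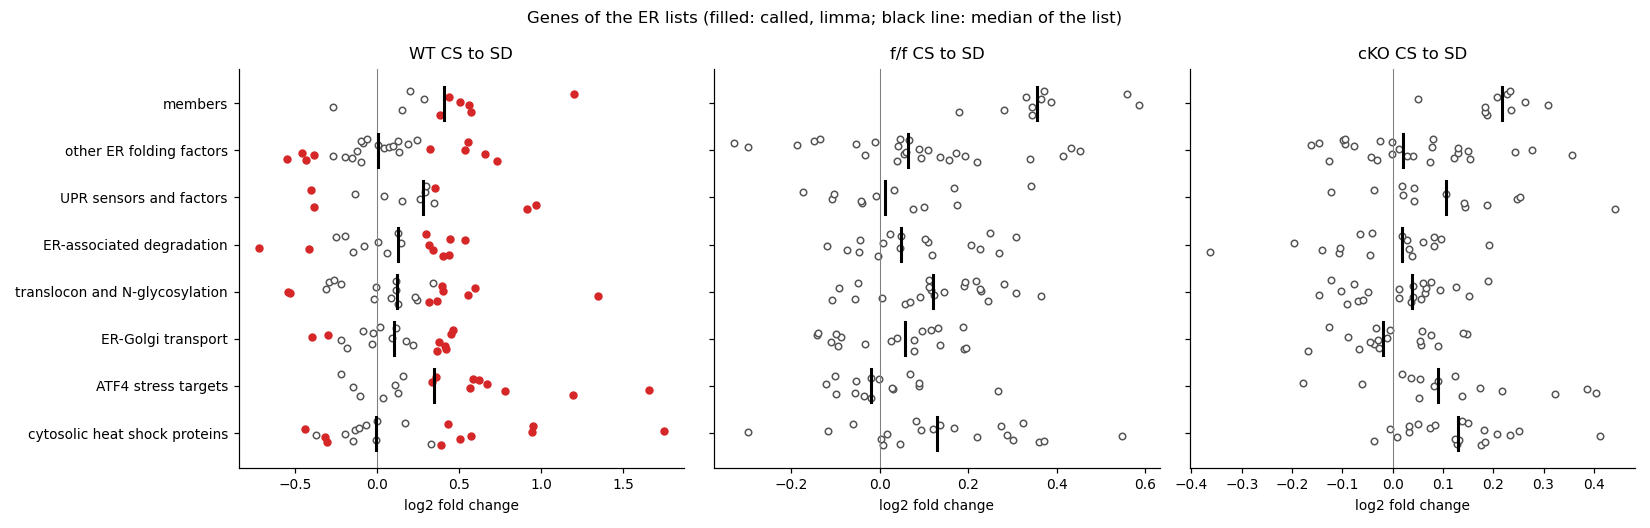
Log2 fold change from CS to SD (horizontal axes, each panel with its own range) of every gene of the members and of 7 lists of related genes in WT, Mef2c f/f and Mef2c-cKO mice; filled points were called by limma and black lines are list medians. The members' median is the rightmost in each panel (0.41, 0.35 and 0.22).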

How the data were processed

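Frontal cortex RNA of 33 libraries was sequenced by the authors from stranded, poly(A)-selected libraries on a NextSeq 500. Per the study's methods, the authors used Trimmomatic for trimming and STAR for alignment to mm10, HTSeq then gave counts of unique reads per gene, and CPM values from edgeR were deposited. The annotation release and the strand setting are not given in the sources used here. All 711645 values were whole reads to within 0.01 read. CPM was divided by a median-of-ratios size factor (11570 genes), and log2(value + 0.5) was tested with limma 3.58.1 (trend, R 4.3.3) on the compared groups alone, with Benjamini-Hochberg adjustment over every gene that reached a CPM of 1 in each library of one or more compared groups. A gene was called at an adjusted p of at most 0.05 and a log2 fold change of at least 0.3 in size, and differences of responses at the adjusted p alone. edgeR 4.0.16 and DESeq2 1.42.0 on the recovered reads, other scalings, pseudocounts, filters, quality weights, a GC and length correction, a replicate block and omitted libraries were alternatives. The fits were tested on simulated data. Libraries held 18935045 to 249046089 reads, and the SE of each fit holds both counting error and the spread between libraries. The CPM listed for each WT library summed to less than 1000000, and what is missing from these sums was not tested. Gene positions are from GENCODE M21 (GRCm38) and promoters from RefSeq (GRCm38.p6). The genes named are the members, the genes of related lists, Mef2c, and the 5 genes most correlated with Hspa5 and with the mean of the members. The members and lists were chosen with earlier results of these data known.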

Additional observations from a re-analysis of the deposited data

Results flagged for a closer look

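In WT CS, replicate 5 had 4.50 rescaled CPM of Sdf2l1, apart from the other libraries of its group, of which the nearest was at 2.88. The gap was 0.675 of the range of the 6 libraries, above Dixon's 95% critical value. Of 40 combinations of member and group tested, this was the only one past that limit, and chance alone passes it in about 1 of 20. No difference between groups in the SD response of a member passed its test.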

How the results depend on the processing

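The number of members called depended on the processing in several comparisons. From WT CS to SD it was 6, and 4 to 9 under the other scalings, pseudocounts, filters and tools, with 5 to 7 when 1 library was left out. The 4 came with CPM of at least 5 required, which removes Sdf2l1 and Creld2. Over all genes that fit called 4095 of 9544, and the 9, with CPM as deposited, came with 6907 of 12913. From WT CS to RS it was 5, but 3 with quantile normalization, 0 with no filter on low values, 2 with the GC and length trend removed, 0 without RS replicates 5 and 6 together, 0 without CS replicates 1 to 3 together, and 0 to 6 when 1 library was left out. Over all genes these fits called, in that order, 1725 of 12752, 385 of 19317, 512 of 12281, 0 of 12781 and 0 of 12790. With 1 library left out, 0 to 3740 genes were called. From Mef2c f/f CS to SD it was 0, but 1 with a pseudocount of 1, 1 with CPM of at least 5 required, 7 with DESeq2, 8 with array quality weights, 4 with the GC and length trend removed, and 0 to 5 when 1 library was left out. Over all genes these fits called, in that order, 13 of 12410, 12 of 10277, 467 of 12410, 1750 of 12410 and 124 of 12386. With 1 library left out, 0 to 590 genes were called. Array quality weights gave 3 in Mef2c-cKO CS to SD, 3 in f/f to cKO in CS and 3 for the response of f/f minus WT, against 0 in each as reported. Over all genes these fits called 291 of 12810, 3402 of 12681 and 7486 of 13106. CPM as deposited gave 3 for f/f to cKO in CS and 1 for f/f minus WT, DESeq2 gave 1 and a fit of all groups 2 for f/f to cKO in CS. Over all genes these fits called, in that order, 1228 of 12681, 3426 of 13106, 2095 of 12681 and 2167 of 12681. Leaving out 1 library gave 0 to 1 for f/f to cKO in SD and 0 to 1 for f/f minus WT, beside 822 to 2447 and 23 to 3300 of all genes. The cause of these changes was not tested. Of 2098 member values under alternatives, 108 had the other sign and none of those was called in the comparison as reported. The sets of libraries left out together were chosen after seeing the data.

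With the replicate number as a block, 2 members were called from WT CS to SD (287 of all genes, against 5826 without it) and 6 from WT CS to RS (4279 of all genes, against 2232), and 0 in the other comparisons where it could be fitted. Correlations of same-numbered WT libraries ran from -0.30 to 0.65 between CS and SD, from 0.05 to 0.66 between CS and RS and from -0.73 to 0.35 between SD and RS. They were thus all above 0 only between CS and RS, and whether equal numbers mark pairs was not tested. Mef2c f/f and Mef2c-cKO libraries share no numbers, so no block could be fitted between them.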
